A study of Homo sapiens with 12 samples.

Results

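The transcripts of 10 genes were followed in 4 A549 lines: the NF-kB subunits NFKB1, NFKB2, REL, RELA and RELB, the feedback inhibitors NFKBIA, NFKBIE and TNFAIP3, and the targets BIRC3 and ICAM1. They were taken by gene symbol from the 60623 genes of the count table, and all 10 were found, each as a single row. A549 is a human lung adenocarcinoma line, and the study asked how phosphorylation of 1 serine of the aryl hydrocarbon receptor (AHR) by the kinase PLK1 acts on metastasis. Poly(A) RNA was sequenced from 3 biological replicates of each line, 12 libraries in all. Every line was made by lentiviral infection of the same A549 cells with the pLV-EF1a-IRES-Hygro vector, in which the EF1a promoter drives the insert, and by selection in hygromycin. The V line carries the empty vector, the WT line wild-type HA-AHR, the SA line HA-AHR with the S489A change, which cannot be phosphorylated at that residue, and the SD line HA-AHR with the S489D change, which mimics the phosphorylated residue. All 4 lines keep the AHR of A549 itself. Each construct is represented by 1 line, so the construct and the line that carries it cannot be told apart, and whether a line is a clone or a pool was not given in the sources used here. The name SD is used below only for the line, and standard deviations are spelled out.

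NF-kB is a family of dimeric transcription factors built from p50 (from NFKB1), p52 (from NFKB2), REL, RELA and RELB. In resting cells the dimers are held in the cytoplasm by IkB proteins such as those of NFKBIA and NFKBIE, and signals from TNF, interleukin-1 or Toll-like receptors lead to the breakdown of IkB and to entry of the dimers into the nucleus. The factor induces its own inhibitors, so that transcripts such as NFKBIA and TNFAIP3 (the ubiquitin-editing protein A20) serve as a readout of the pathway, beside targets such as BIRC3 (the ubiquitin ligase cIAP2, which limits cell death) and ICAM1 (an adhesion molecule for leukocytes).

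The libraries held between 7844045 and 11765576 expected counts. AHR was between 65.9 and 74.4 CPM (counts scaled to a common library total) in V and between 202 and 285 CPM in the WT, SA and SD libraries, higher in the lines labelled as carrying HA-AHR. The gene ENSG00000283321 overlaps AHR. The sum of both was 451 to 481 CPM in WT, 372 to 407 in SA and 290 to 305 in SD, without overlap between these lines. The epithelial genes EPCAM, KRT8, KRT18, KRT19 and CDH1 summed to between 6060 and 6310 CPM in V and between 4410 and 4870 CPM in the AHR lines. KRT8 and KRT18 accounted for nearly all of this sum. CDH1 was between 103 and 180 CPM, while EPCAM reached at most 1.75 CPM and KRT19 at most 0.537 CPM in any library. The alveolar type II genes SFTPA1, SFTPB, SFTPC and NKX2-1 summed to at most 0.509 CPM in any library. Of 5 leukocyte genes, CD14 accounted for nearly all of the signal. Its level was 11.4 to 13 CPM in V, 14.6 to 16.1 in WT, 12.9 to 17.2 in SA and 16.5 to 22.5 in SD. The fibroblast genes summed to 5.98 to 13.7 CPM and the endothelial genes to at most 0.316 CPM. The part of these AHR and marker levels in the results below was not tested. In bulk RNA, fewer cells with a transcript and less of it per cell cannot be told apart.

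RELA led the family in every line. Per kilobase of canonical transcript, its level over the 12 libraries was 37.2 CPM per kb, followed by 26 for NFKB2 and 25.6 for NFKBIA. NFKB1 stood at 10.4 CPM per kb and RELB at 10.3, BIRC3 at 5.81, NFKBIE at 4.28, REL at 1.89 and TNFAIP3 at 1.64, with ICAM1 lowest at 0.269. In the summed level of the 5 subunits per kb, RELA held between 42.8% and 43.8% in the 4 lines, NFKB2 between 29.7% and 31.3%, NFKB1 between 11.7% and 12.4%, RELB between 11.3% and 12.3% and REL between 2.1% and 2.32%. RELA and NFKB2 transcripts made up most of the pool in every line. NFKB1 and RELB took nearly equal shares, with RELB the higher in WT (12.1% against 11.7%) and NFKB1 in the other lines. The order between genes depends on the length used. With the union of all annotated exons, NFKB1 stood at 2.69 CPM per kb, below RELB (7.73), BIRC3 (5.34) and NFKBIE (3.89), while RELA (17.2) and NFKB2 (14.1) stayed first and second.

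**Figure D1:**
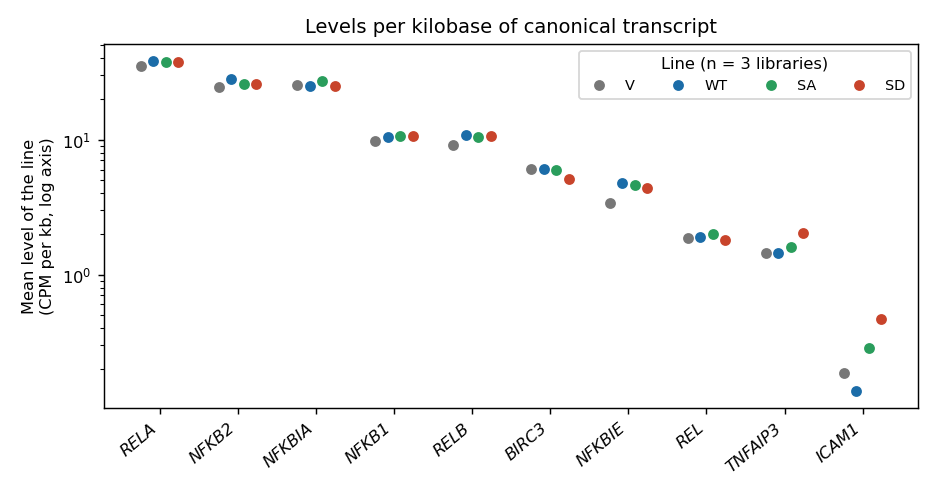
Mean level of each of the 10 genes in each line, in CPM per kilobase of the canonical transcript on a log axis, 1 point per line (n = 3 libraries each). The points of the 4 lines lie close together for the subunits and NFKBIA and spread most for ICAM1, from 0.136 in WT to 0.467 in SD.

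Sites of the kind that NF-kB dimers bind stand in the promoters of several of these genes. RefSeq promoter sequence (build GRCh38.p14, a window across the RefSeq start, the first listed per gene) was matched for 8 of the 10. RELB and NFKBIE were not matched. The RELA window lies wholly upstream of the RELA start as deposited and does not reach it. The general kappaB consensus, searched on both strands, was found in 5 of these 8 promoters (NFKB1, REL, NFKBIA, TNFAIP3 and BIRC3) and in 11.3% of 34941 human promoters of the same length. In the windows below, of 30 bases each and written on the strand of the gene, capitals mark the match. They are shown for the inhibitors NFKBIA and TNFAIP3, the target BIRC3 and 2 of the subunits themselves. These genes were listed beforehand as subunits or targets of the family, so the share of 5 of 8 is not a test of that role.
NFKB1, chr4:102501300-102501329, plus strand: cgacgtcagtGGGAATTTCCagccaggaag
REL, chr2:60881517-60881546, plus strand: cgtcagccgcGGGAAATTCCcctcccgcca
NFKBIA, chr14:35404811-35404840, minus strand: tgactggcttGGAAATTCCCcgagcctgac
TNFAIP3, chr6:137867182-137867211, plus strand: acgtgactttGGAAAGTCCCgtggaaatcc
TNFAIP3, chr6:137867194-137867223, plus strand: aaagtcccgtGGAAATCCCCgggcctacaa
BIRC3, chr11:102317275-102317304, plus strand: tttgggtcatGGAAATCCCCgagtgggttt
BIRC3, chr11:102317339-102317368, plus strand: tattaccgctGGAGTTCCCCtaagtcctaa
Counted from the RefSeq start, the matches begin 49 bases before NFKB1, 47 before REL and 81 before NFKBIA. Those of TNFAIP3 begin 67 and 55 bases before it, and those of BIRC3 199 and 135. For NFKB1, REL, TNFAIP3, BIRC3 and ICAM1 this start differs from the deposited gene start given below. The REL match lies inside the deposited REL gene. The first TNFAIP3 match, read on the other strand, is also the classical site of the immunoglobulin kappa enhancer, which 0.189% of all promoters hold. The ICAM1 promoter held no match to the consensus. It held the shorter site GGAAATTCC, a search added after the ICAM1 window had been seen, 186 bases before the RefSeq start.
ICAM1, chr19:10270923-10270952, plus strand: tgctttagcttGGAAATTCCggagctgaag
That site was in 4 of the 8 promoters (NFKB1, REL, NFKBIA and ICAM1) and in 0.464% of all promoters. In NFKB1, REL and NFKBIA it lies inside the consensus match. The core of the AHR element, GCGTG on either strand, was in 4 of the 8 (NFKB1, REL, BIRC3 and ICAM1) and in 36.5% of all promoters. A match describes the letters of the window and is not a measurement of binding.

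None of the 10 transcripts differed among the 4 lines at an adjusted p under 0.05. The quasi-likelihood F test of edgeR over the 12 libraries called 0 of the 10, beside 6.41% of the 15453 genes tested. At an unadjusted p under 0.05 it passed 5 of the 10 (NFKB2, NFKBIE, TNFAIP3, BIRC3 and ICAM1), beside 19.4% of all genes. Of these 5, ICAM1 fell below the expression filter in every comparison of lines without SD. Each of the 5 missed an unadjusted p under 0.05 by the same F test with some library left out. Without SD replicate 3 it was 0.191 for TNFAIP3, 0.207 for ICAM1 and 0.072 for BIRC3. It was 0.181 for NFKB2 without WT replicate 1 and 0.124 for NFKBIE without V replicate 1. The likelihood ratio test of DESeq2 also called 0 of the 9 to which it gave an adjusted p (all but ICAM1). The smallest adjusted p by edgeR was 0.137, for BIRC3. It was 0.151 for NFKBIE, 0.19 for TNFAIP3, 0.227 for NFKB2 and 0.242 for ICAM1. All values below are therefore descriptions of levels, with the size of difference that each comparison leaves possible.

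**Figure D2:**
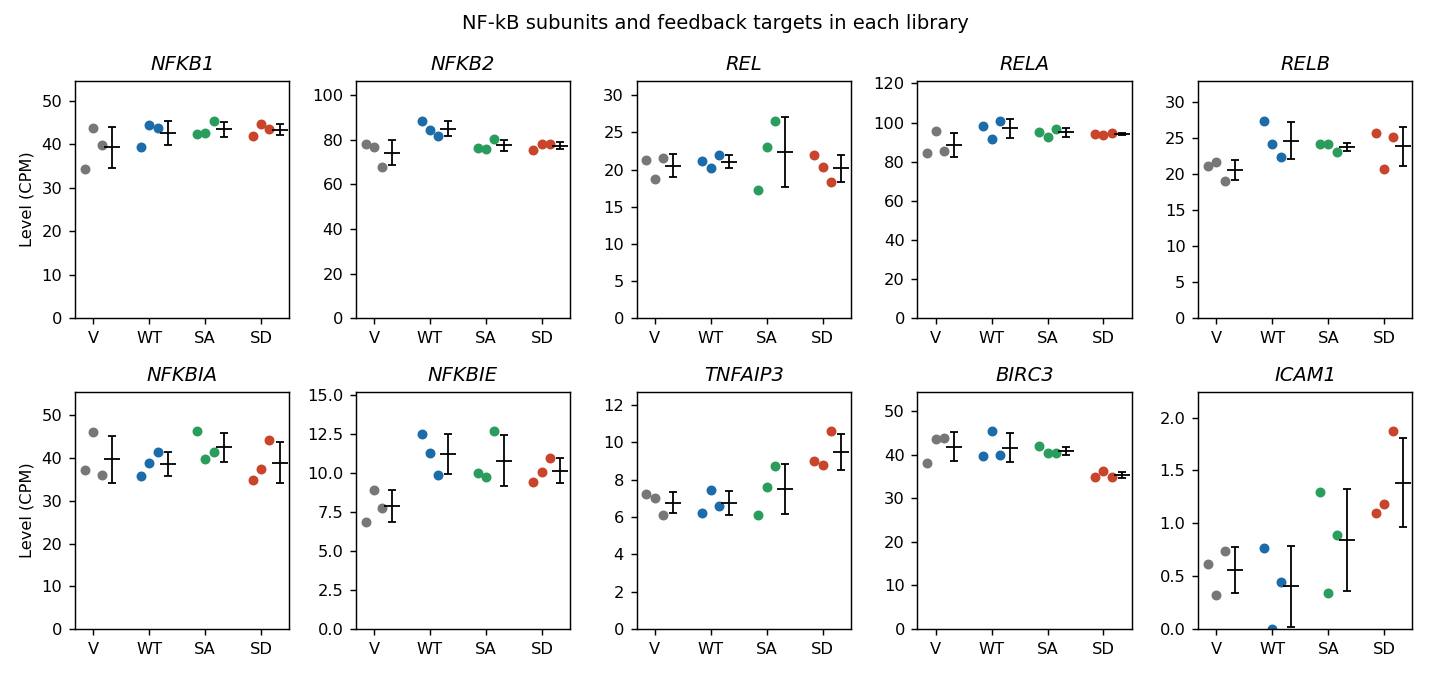
Level of each gene in CPM (linear axis from 0) in each of the 12 libraries, as 3 points per line, with the mean and standard deviation of the line in black. The 3 SD libraries lie below all others for BIRC3 and above all others for TNFAIP3, and the 3 V libraries lie below all others for NFKBIE.

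The line means of each of the 5 subunits lay within 1.2-fold of each other. RELA (ENSG00000173039, chr11:65653597-65663090, minus strand), the main activating subunit of the canonical pathway, measured 84.4, 95.6 and 85.7 CPM in V, 98.2, 91.8 and 101 in WT, 95.3, 92.6 and 96.9 in SA and 93.9, 93.6 and 94.8 in SD. The line means lay within 1.1-fold of each other, and neighbours in their order (WT, SA, SD, V) overlapped. NFKB1 (ENSG00000109320, chr4:102501331-102617302, plus strand), which encodes p105 and its product p50, ranged from 34.3 to 45.4 CPM. Its mean was lowest in V, at 39.2 ± 4.71 CPM (standard deviation, n = 3), beside 43.4 ± 1.71 in SA, 43.3 ± 1.34 in SD and 42.5 ± 2.78 in WT, and neighbours overlapped here too.

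NFKB2 (ENSG00000077150, chr10:102394110-102402524, plus strand), which encodes p100 and its product p52 of the non-canonical pathway, was highest in WT. Its levels were 88.6, 84.4 and 81.9 CPM in WT, 76.3, 75.9 and 80.2 in SA, 75.6, 78.2 and 78.3 in SD and 77.9, 76.8 and 67.7 in V. All 3 WT libraries stood above the 9 others, while SA, SD and V overlapped. The log2 difference of WT against V was 0.19 (SE 0.07, adjusted p = 0.0958 by edgeR), and SD against WT gave -0.13 (SE 0.07, adjusted p = 0.472).

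RELB (ENSG00000104856, chr19:45001449-45038198, plus strand), the partner of p52, was lowest in V, at 21.1, 21.6 and 19 CPM. It measured 27.4, 24.1 and 22.3 CPM in WT, 24.1, 24.1 and 23.1 in SA and 25.7, 20.7 and 25.1 in SD. The V libraries lay below all WT and all SA libraries and overlapped with SD through SD replicate 2. WT against V gave a log2 difference of 0.25 (SE 0.11, adjusted p = 0.214 by edgeR).

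REL (ENSG00000162924, chr2:60881521-60931610, plus strand), the subunit best known from lymphocytes, ranged from 17.3 to 26.6 CPM, and both ends of the range were SA libraries. Its mean was 22.3 ± 4.73 CPM in SA (standard deviation, n = 3), beside 21.1 ± 0.821 in WT, 20.5 ± 1.6 in V and 20.2 ± 1.79 in SD, and neighbours overlapped. In all 12 libraries the expected count of REL had a fractional part. The non-coding gene ENSG00000267520 has all of its 5702 exonic bases within REL exons, on the same strand. That gene was at 0.0885 CPM in SA replicate 3, the library with the highest REL, and between 2.55 and 6.9 CPM in the other 11. The level of REL alone is therefore uncertain. When both were summed, SA measured 22.4, 28.4 and 26.7 CPM, and the log2 differences of the 6 comparisons lay between -0.09 and 0.02, with adjusted p from 0.732 to 0.992 by edgeR.

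The feedback inhibitors differed in the order of their line means, and none of them was called. NFKBIA (ENSG00000100906, chr14:35401511-35404749, minus strand), which encodes IkB alpha and has the promoter match shown above, measured 37.2, 46.1 and 36 CPM in V, 35.9, 38.8 and 41.5 in WT, 46.3, 39.7 and 41.5 in SA and 35, 37.4 and 44.3 in SD. The 4 lines overlapped throughout and their means lay within 1.1-fold. The log2 differences of NFKBIA were -0.03 for SD against V (95% interval -0.23 to 0.18), 0.01 for SD against WT (-0.19 to 0.2) and -0.12 for SD against SA (-0.31 to 0.07). The first was positive without V replicate 2 (0.094), SD replicate 1 (0.046) or SD replicate 2 (0.003), and the second negative without SD replicate 3 (-0.099) or WT replicate 1 (-0.038), so neither has a settled direction.

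NFKBIE (ENSG00000146232, chr6:44258166-44265788, minus strand), the IkB epsilon, was lowest in V. It measured 6.9, 8.93 and 7.8 CPM in V, 12.5, 11.3 and 9.92 in WT, 10, 9.75 and 12.7 in SA and 9.43, 10.1 and 11 in SD. Every one of the 9 libraries of the AHR lines lay above the highest V library, and WT, SA and SD overlapped among themselves. The log2 difference was 0.51 for WT against V (SE 0.17, adjusted p = 0.0831), 0.46 for SA against V (SE 0.17, adjusted p = 0.116) and 0.37 for SD against V (SE 0.17, adjusted p = 0.245), all by edgeR. These 3 comparisons share the V libraries, so a low V library enters each of them.

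TNFAIP3 (ENSG00000118503, chr6:137867214-137883312, plus strand), which encodes A20, was highest in SD. It measured 9.02, 8.81 and 10.6 CPM in SD, 6.12, 7.61 and 8.76 in SA, 7.21, 7.01 and 6.11 in V and 6.24, 7.47 and 6.58 in WT. The lowest SD library (8.81 CPM) lay just above the highest SA library (8.76 CPM), and SA, V and WT overlapped. The log2 difference was 0.49 for SD against V (SE 0.18, adjusted p = 0.117), 0.48 for SD against WT (SE 0.17, adjusted p = 0.268) and 0.34 for SD against SA (SE 0.17, adjusted p = 0.609), by edgeR, in comparisons that share the SD libraries.

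BIRC3 (ENSG00000023445, chr11:102317450-102339403, plus strand) went the other way. This gene, whose promoter holds a pair of kappaB matches, measured 35, 36.2 and 34.8 CPM in SD, 38, 43.7 and 43.9 in V, 39.7, 45.4 and 39.9 in WT and 42, 40.3 and 40.4 in SA. All 3 SD libraries lay below the 9 others, and V, WT and SA overlapped. The difference was small: log2 -0.24 for SD against V (SE 0.09, adjusted p = 0.106), -0.24 for SD against WT (SE 0.09, adjusted p = 0.249) and -0.21 for SD against SA (SE 0.08, adjusted p = 0.449), by edgeR. TNFAIP3 and BIRC3, both listed as targets of NF-kB, thus lay at opposite ends of the order in SD.

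ICAM1 (ENSG00000090339, chr19:10271093-10286615, plus strand) was near the limit of detection. It measured 0.618, 0.319 and 0.738 CPM in V, 0.764, 0 and 0.446 in WT, 1.3, 0.342 and 0.885 in SA and 1.1, 1.18 and 1.87 in SD. The SD libraries lay above all V and WT libraries and overlapped with SA. Summed over each line, these levels rest on few counts. The V total of 16 counts gives 0.558 CPM (exact Poisson 95% interval 0.319 to 0.907), the WT total of 10 gives 0.355 (0.17 to 0.653), the SA total of 27 gives 0.817 (0.539 to 1.19) and the SD total of 43 gives 1.4 (1.02 to 1.89), and these intervals cover counting error only. The 0 counts of WT replicate 2 allow a level of up to 0.264 CPM. The log2 difference of ICAM1 was 1.31 for SD against V (SE 0.5, adjusted p = 0.145), 1.91 for SD against WT (SE 0.64, adjusted p = 0.227) and 0.75 for SD against SA (SE 0.49, adjusted p = 0.7), by edgeR. The gene fell below the expression filter in the 3 comparisons without SD, so it had to be high in SD to be tested at all. Genes on the opposite strand overlap exons of ICAM1 (ICAM4-AS1 by 815 bases and LIMASI by 61), RELA (RELA-DT by 103), TNFAIP3 (WAKMAR2 by 95) and BIRC3 (ENSG00000288528 by 126). If the counting did not use strand, reads of such a pair in the shared bases cannot be told apart.

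By comparison, SD against V called 0 of 10 at an adjusted p under 0.05, beside 5.41% of all genes tested. At an unadjusted p under 0.05 it passed 4 (NFKBIE, TNFAIP3, BIRC3 and ICAM1), beside 17.4% of all genes. The libraries of the lines did not overlap for 3 genes that were higher and 1 that was lower in SD, where 10.7% of all genes separated in each direction. ICAM1 is counted among the 4 and among the 3, although it passed the filter only in comparisons with SD, where it was high. The 95% intervals of the 5 subunits ran from -0.26 to 0.45 on the log2 scale, or from 0.835-fold to 1.37-fold.

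WT against V called 0 of 9 (all genes 5.24%) and passed 3 at an unadjusted p under 0.05 (NFKB2, RELB and NFKBIE, all genes 17.4%). These 3 were higher in every WT library than in every V library, as were 11.1% of all genes. SA against V called 0 of 9 (all genes 7.17%) and passed NFKBIE alone at an unadjusted p under 0.05 (all genes 20%). RELB and NFKBIE were higher without overlap in SA, as were 12.3% of all genes. The median log2 difference of the genes tested was 0.12 in WT against V, 0.13 in SA against V and 0.12 in SD against V, where the median of all genes was 0 each time. These comparisons share the 3 V libraries.

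Among the lines with HA-AHR, the inserts differ only at the mutated serine, and the summed AHR level given above also differed. SD against WT called 0 of 10 (all genes 0.708%) and passed 3 at an unadjusted p under 0.05 (TNFAIP3, BIRC3 and ICAM1, all genes 10.6%). ICAM1 is counted there although it passed the filter only in comparisons with SD. TNFAIP3 and ICAM1 were higher without overlap in SD, as were 8.34% of all genes, and NFKB2 and BIRC3 were lower, as were 7.64%. SD against SA called 0 of 10 (all genes 0.22%) and passed BIRC3 at an unadjusted p under 0.05 (all genes 8.52%). There TNFAIP3 was higher and BIRC3 lower without overlap, beside 6.82% and 6.83% of all genes. WT against SA called 0 of 9 (all genes 0.0803%), and also 0 at an unadjusted p under 0.05 (all genes 7.31%). NFKB2 was higher without overlap in WT, as were 6.52% of all genes, and 0 were lower, beside 6.33%. For the 5 subunits, the 95% intervals ran from 0.812-fold to 1.15-fold for SD against WT, from 0.742-fold to 1.17-fold for SD against SA and from 0.779-fold to 1.2-fold for WT against SA. The Wald test of DESeq2 called 0 of the 9 genes to which it gave an adjusted p in each of the 3 comparisons with V and in SD against SA, and 0 of 5 in SD against WT. It gave none of the genes an adjusted p in WT against SA.

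**Figure D3:**
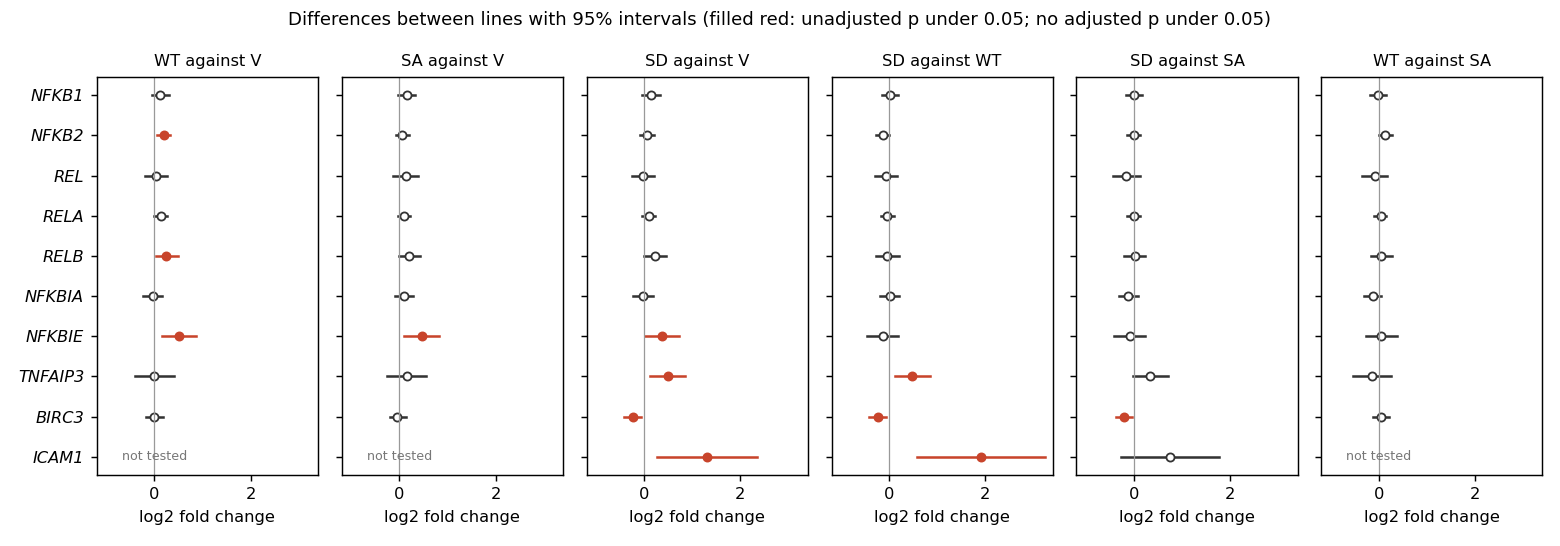
Fitted log2 fold change (point) and 95% interval (line) of each of the 10 genes in the 6 comparisons of lines, with unadjusted p under 0.05 filled in red. NFKBIA sits close to 0 and the points of the subunits lie between -0.16 and 0.25. The intervals of NFKB2 and RELB lie above 0 in WT against V. Those of NFKBIE lie above 0 in all 3 comparisons with V, and those of BIRC3 below 0 in all 3 comparisons of SD. ICAM1 has the widest intervals, up to 3.24 in SD against WT.

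BIRC3 had the smallest p among the 4 lines. The genes whose pattern was most like it, by the root mean square difference of log2 CPM after centring each gene on its mean over the 12 libraries, were C1orf198 (0.046), SH3BP5L (0.059), FA2H (0.066), MRPL35 (0.067) and NOL11 (0.068), among 15452 genes with a median of 0.191. BIRC3 itself varied by 0.12 around its mean on that scale. All 5 had their lowest line mean in SD, as BIRC3 has. This follows from their choice by likeness to BIRC3 in the same libraries and is not a separate result. C1orf198 averaged 29.7 CPM in SD, beside 33 in SA, 33.4 in WT and 34.3 in V.

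Beyond these 10 genes, 71 others of the pathway were counted by role, and 62 of them were tested at least once. The lists were chosen with earlier results of these data known. The counts below, set beside the shares of all genes, are therefore not a test of the pathway. The 9 below the filter in every comparison were BCL2A1, CCL20, CSF2, IL1B, LTB, MMP9, SAA1, SELE and TNF, several of them the cytokines that start or carry the signal. In SD against V, 7 rose and 1 fell of 62 tested, where 2.92% of all genes rose and 2.49% fell. Of the 7, IL6 and VCAM1 passed the expression filter against V only through SD, where they were high, and without them 5 rose of 60. In WT against V, 5 rose and 2 fell of 60, beside 2.31% and 2.93% of all genes. In SA against V, 7 rose and 2 fell of 60, beside 3.88% and 3.29%. Among the AHR lines, SD against WT had 3 higher and 0 lower of 61 (all genes 0.513% and 0.196%), and SD against SA had 2 higher and 0 lower of 62 (all genes 0.16% and 0.0599%). WT against SA had 0 and 0 of 61 (all genes 0.0201% and 0.0602%), where an unadjusted p under 0.05 passed 5. The median log2 difference of the tested pathway genes lay between -0.01 and 0.05 in all 6 comparisons.

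Of the 18 receptors and adaptors, 2 rose in WT, 4 in SA and 2 in SD against V, and 0 fell. The log2 difference was negative for 6, 5 and 4 of the 18. TNFRSF1A, the main TNF receptor, measured 486, 479 and 485 CPM in V, 558, 520 and 546 in WT, 573, 539 and 577 in SA and 560, 531 and 565 in SD. All 9 libraries of the AHR lines lay above V. Its log2 difference from V was 0.16 in WT (SE 0.04, adjusted p = 0.017), 0.22 in SA (SE 0.05, adjusted p = 0.00249) and 0.19 in SD (SE 0.05, adjusted p = 0.0224), by edgeR. IRAK1, a kinase of the interleukin-1 and Toll-like receptor complex, rose by log2 0.2 in WT (adjusted p = 0.00983), 0.27 in SA (adjusted p = 0.00143) and 0.19 in SD (adjusted p = 0.0496). The adaptor MYD88 rose in SA against V by log2 0.26 (SE 0.08, adjusted p = 0.0455), and the receptor TNFRSF12A by log2 0.28 (SE 0.07, adjusted p = 0.0166). Of these calls, TNFRSF1A and IRAK1 in SA against V held in all 12 alternatives. Each of the others was lost without at least 1 of the libraries. TNFRSF1A lost its call in WT without WT replicate 1 or 3 or V replicate 1, and in SD without SD replicate 3 or any V library. With a block on the replicate number, edgeR also lost TNFRSF1A in WT (adjusted p = 0.0551) and IRAK1 in WT (0.0503) and SD (0.0778). IRAK1 further lost its call in WT without WT replicate 1 or V replicate 1 or 3, and in SD without SD replicate 2 or 3 or any V library, with DESeq2's size factors (adjusted p = 0.0553) and with all 12 libraries in 1 edgeR fit (adjusted p = 0.0506). TNFRSF12A lost its call without SA replicate 3 or V replicate 1 or 3, and MYD88 without any 1 of the 6 libraries, by the DESeq2 Wald test (adjusted p = 0.122) and with no filter (adjusted p = 0.0527).

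Of the 10 kinases, which include the IKK complex that marks IkB for breakdown, 1 passed in 1 comparison. MAP3K14, the NF-kB-inducing kinase of the non-canonical pathway, rose by log2 0.23 in WT against V (SE 0.07, adjusted p = 0.0377 by edgeR), from 80.1, 74.2 and 75.9 CPM in V to 97.5, 84.6 and 88.1 in WT. Its call held in 4 of 12 alternatives and was lost, among others, without any V library, without WT replicate 1 or 3, by the DESeq2 Wald test (adjusted p = 0.071) and with all 12 libraries in 1 edgeR fit (adjusted p = 0.0619). Of 12 other inhibitors and deubiquitinases, TNIP1, which works with A20, rose in SA against V by log2 0.22 (SE 0.06, adjusted p = 0.0205), and BCL3, an atypical IkB protein, rose in SD against V by log2 0.21 (SE 0.06, adjusted p = 0.0346). TNIP1 lost its call without SA replicate 2 or 3 or V replicate 1, and BCL3 without SD replicate 2 or 3 or any V library.

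Most of the calls, and the largest differences, were among other target genes, and they went in both directions. CSF1, the macrophage colony-stimulating factor, measured 96.3, 106 and 96.6 CPM in V, 122, 115 and 133 in WT, 146, 137 and 142 in SA and 161, 143 and 152 in SD. It rose against V by log2 0.31 in WT (SE 0.06, adjusted p = 0.00171), 0.51 in SA (SE 0.06, adjusted p = 9.25e-07) and 0.61 in SD (SE 0.06, adjusted p = 2.32e-07), by edgeR, and in SD against WT by log2 0.3 (SE 0.06, adjusted p = 0.0231). The last of these was lost without SD replicate 1 or WT replicate 1 or 2, and the calls against V held in all 12 alternatives.

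PTGS2, the inducible cyclooxygenase, measured 167, 148 and 164 CPM in V, 97.7, 121 and 110 in WT, 115, 86.2 and 98.1 in SA and 159, 138 and 133 in SD. It was thus high in V and SD and low in WT and SA. It fell against V by log2 0.54 in WT (SE 0.06, adjusted p = 9.35e-07) and by log2 0.69 in SA (SE 0.07, adjusted p = 3.1e-07), while SD against V gave -0.15 (SE 0.07, adjusted p = 0.22 by edgeR), and -0.237 without SD replicate 1 (adjusted p = 0.0208). It was higher in SD than in WT by log2 0.38 (SE 0.07, adjusted p = 0.0103) and than in SA by log2 0.53 (SE 0.09, adjusted p = 0.0063). These were lost without SD replicate 1 or WT replicate 1 (SD against WT) and without SA replicate 2 (SD against SA).

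C3, the central complement component, stood out in SD, with 315, 269 and 258 CPM beside 216, 192 and 200 in V, 188, 200 and 195 in WT and 231, 192 and 182 in SA. All 3 SD libraries lay above the 9 others. It rose in SD by log2 0.47 against V (SE 0.07, adjusted p = 2.74e-05), 0.53 against WT (SE 0.07, adjusted p = 5.83e-05) and 0.48 against SA (SE 0.08, adjusted p = 0.0089), by edgeR, and the last was lost without SA replicate 2 or 3 and by the DESeq2 Wald test (adjusted p = 0.114).

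IL6 and VCAM1, a cytokine and an adhesion molecule induced by NF-kB in many cells, were called in SD against V at levels close to the limit of detection. IL6 measured 0.206, 0.213 and 0.211 CPM in V, 0.764, 0.791 and 0.892 in WT, 0.201, 0.599 and 0.885 in SA and 1.5, 2.47 and 1.96 in SD. All SD libraries lay above all others, and IL6 passed the expression filter only in the comparisons that include SD. The IL6 levels rest on 60 counts in SD and 6 in V, a ratio of 9.36 per total count (exact binomial 95% interval 4.06 to 26.5, counting error only), with an adjusted p of 0.000512 by edgeR. VCAM1 measured 0.412, 0.106 and 0.211 CPM in V, 0.636, 0.967 and 0.669 in WT, 1.41, 1.54 and 0.885 in SA and 2.01, 1.72 and 1.96 in SD. Its 58 counts in SD and 7 in V give a ratio of 7.76 (3.54 to 20.1), with an adjusted p of 0.00129 by edgeR. VCAM1 was not tested in WT against V or SA against V, so it passed the filter against V only through SD, where it was high. Both missed the threshold in SD against WT (adjusted p = 0.237 for IL6 and 0.227 for VCAM1) and in SD against SA (0.199 and 0.713).

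The anti-apoptotic BCL2L1 fell against V by log2 0.21 in WT (SE 0.05, adjusted p = 0.0133) and by log2 0.35 in SD (SE 0.06, adjusted p = 0.000296), from 192, 197 and 182 CPM in V to 173, 153 and 169 in WT and 143, 148 and 158 in SD. SA against V gave -0.17 for BCL2L1 (SE 0.06, adjusted p = 0.0704 by edgeR), with all SA libraries below V. The WT call of BCL2L1 was lost without WT replicate 2 or V replicate 1 or 2, and with a block on the replicate number (adjusted p = 0.0598 by edgeR). The protease PLAU rose against V by log2 0.29 in WT (SE 0.05, adjusted p = 0.000374) and 0.32 in SA (SE 0.05, adjusted p = 0.000187), and the chemokine CXCL1 fell in SA by log2 1.01 (SE 0.23, adjusted p = 0.00573), from 6.28, 6.38 and 6.64 CPM in V to 2.91, 3.25 and 3.36 in SA. WT against V gave -0.83 for CXCL1 (SE 0.26, adjusted p = 0.0666 by edgeR), with all WT libraries below V. SD against V gave 0.05 for PLAU (SE 0.06, adjusted p = 0.749 by edgeR). For CXCL1 it gave -0.29 (SE 0.21, adjusted p = 0.522 by edgeR), with all SD libraries below V. SD against WT gave -0.24 for PLAU (SE 0.06, adjusted p = 0.0548 by edgeR), with all SD libraries below WT. CXCL8, the chemokine interleukin-8, was not called in any comparison, at line means between 1.06 and 2.08 CPM.

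**Figure D4:**
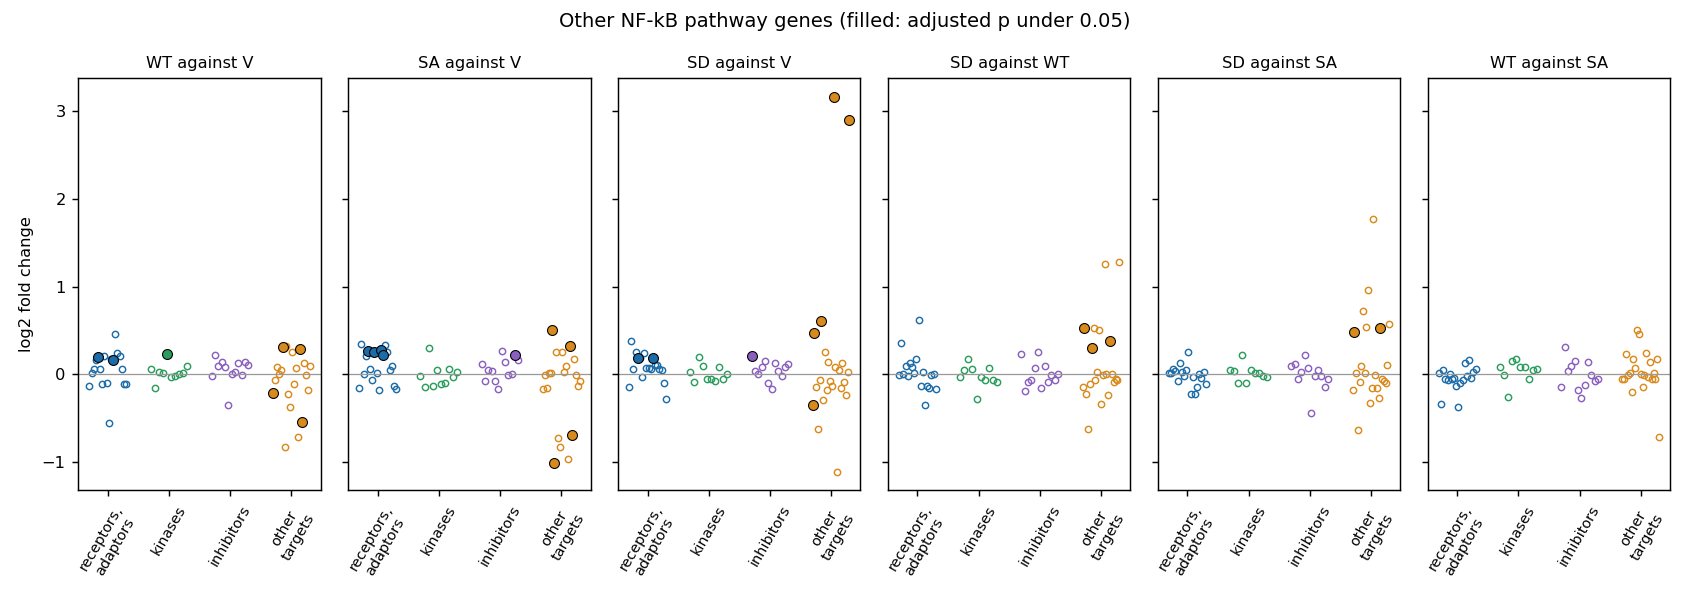
Log2 fold change of each tested pathway gene in the 6 comparisons, in 4 columns by role, with filled points for an adjusted p under 0.05. The kinases and inhibitors lie near 0, and the widest spread and the highest filled points (IL6 at 3.16 and VCAM1 at 2.9, SD against V) are among the other target genes.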

How the data were processed

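Reads were trimmed by the authors with Trimmomatic 0.39 and assigned to GRCh38 transcripts with RSEM, and the expected counts per gene were deposited without normalization. The strand setting of the counting was not given in the sources used here. A second deposited table, of the authors' own comparisons (fold changes, p-values), was not used. Expected counts were rounded and analysed with edgeR 4.0.16 (R 4.3.3): filterByExpr (minimum count 10, minimum total 15), TMM (factors 0.993 to 1.01) and the two-sided quasi-likelihood test, on the 6 libraries of each pair of lines and on all 12 libraries. Adjusted p is Benjamini-Hochberg over all genes tested, and 0.05 was the threshold. Intervals are 95% and SE is the log2 difference over the root of F. CPM uses TMM library sizes, and a count of 0 was limited by 3 counts (0.255 to 0.382 CPM). Replicate libraries were compared, and none was a copy of another. Their separate culture is as labelled. Alternatives were DESeq2 1.42.0, other filters and normalization, a replicate block and leaving out each library. Promoters came from RefSeq. Figures used matplotlib 3.10.9. Gene coordinates are as deposited, promoter windows follow the RefSeq starts, and canonical lengths are from GENCODE v44.

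The genes, the pathway lists and the tests were chosen with earlier results of these data known. Named were all 10 genes, with statistics at an unadjusted p under 0.05, and pathway genes at an adjusted p under 0.05, at most 4 per role and comparison. BCL2L1 in SD against V (outside the 4 largest there), NFKB2 in SD against WT, TNFAIP3 and ICAM1 in SD against SA, NFKBIA, CXCL8, and the uncalled comparisons of PTGS2, IL6, VCAM1, BCL2L1, CXCL1 and PLAU were named after their values were seen. The code was tested on simulated data.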

Additional observations from a re-analysis of the deposited data

How the results depend on the processing

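Among the 10 genes, 0 were called in each of the 6 comparisons of lines under all 12 alternatives (11 in WT against SA, where DESeq2's Wald test gave them no adjusted p), and 0 in the test over the 4 lines under all 17. The smallest adjusted p reached was 0.061 (NFKBIE in WT against V without V replicate 2, edgeR), and over the 4 lines 0.107 (BIRC3 without V replicate 1). Of the log2 differences given for them, those of NFKBIA changed sign with 1 library left out: SD against V (-0.03) ranged from -0.135 to 0.094 and SD against WT (0.01) from -0.099 to 0.08. The others kept their sign, and ICAM1 gave no value with at least 10 counts in every library and no adjusted p by the DESeq2 Wald test, nor did IL6 and VCAM1 in SD against V. Counts of pathway genes called moved more. WT against V called 7, 3 with the replicate block, and 3 to 6 with 1 library left out (4 without WT replicate 1, 3 without V replicate 1). SD against V called 8, and 5 to 9 with 1 library left out (5 without SD replicate 3 or any V library). SD against WT called 3 and 6 under each of the DESeq2 Wald test, no filter, at least 10 counts in every library, all 12 libraries in 1 fit and the replicate block, and 1 to 3 with 1 library left out (1 without WT replicate 1). SD against SA called 2, 4 with the replicate block, and 0 to 3 with 1 library left out (0 without SA replicate 2, 1 without SA replicate 3). The cause was not tested. SA against V called 9 (7 to 11) and WT against SA 0 throughout. Calls over all genes ranged from 434 to 930 in WT against V (774), 621 to 1345 in SA against V (1069), 502 to 973 in SD against V (806), 45 to 252 in SD against WT (105), 11 to 165 in SD against SA (33) and 2 to 103 in WT against SA (12). The correlation of deviations of same-numbered libraries across 10276 genes was -0.17 to 0.27. It was over 0.1 in 9 of 18 pairs and highest with the own number in 12 of 18. This fell short of over 0.1 in every pair of any 2 lines, so the numbers were not taken to pair the samples. Among WT, SA and SD the correlation was positive in every pair (0.07 to 0.27), and all negative values were in pairs with V. Whether the AHR lines share a replicate effect was not tested, and the main fits do not model one. With the block, 0 of the 10 genes were called, and adjusted p in WT against V was 0.0551 for TNFRSF1A, 0.0503 for IRAK1, 0.0598 for MAP3K14 and 0.0598 for BCL2L1, and in SD against V 0.0778 for IRAK1. The calls of SA against V and those among the AHR lines had smaller adjusted p with the block. By edgeR it was then 0.00318 for CSF1, 0.00316 for PTGS2 and 3.49e-06 for C3 in SD against WT. In SD against SA it was 5.78e-05 for PTGS2 and 3.62e-06 for C3. Depth limits ICAM1, IL6 and VCAM1.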
